A study of Mus musculus with 12 samples.

Results

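The 36 genes described here are NRF2, its inhibitor KEAP1, and enzymes and transporters of glutathione and peroxide metabolism, among them the standard NRF2 targets. They were taken as a list of gene symbols from the platform annotation, with the brightest probe set standing for a gene, and 34 of them had a probe set with 1 symbol among the 18820 genes measured. The remaining members, Gsta2 and Gstz1, were read only by probe sets that carry several symbols and are given apart. RNA was measured on 12 arrays in JNKΔhepa hepatocytes, WT hepatocytes, JNKΔhepa liver and WT liver, with 3 arrays per group. JNKΔhepa mice lack Jnk1 (Mapk8) in hepatocytes, through a Cre driven by the albumin promoter with the alpha-fetoprotein enhancer (Jnk1Δhepa), and carry a constitutive Jnk2 (Mapk9) knockout (Jnk2-/-), so Jnk2 is missing from the other liver cells too. WT mice were Jnk1f/f Jnk2+/+ littermates, which carry the floxed Jnk1 allele as well. All 6 mice were male, on C57BL/6, 7 to 8 weeks old and fed standard chow, with no toxic or dietary challenge named in the labels, and each gave a liver and a hepatocyte sample.

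JNK1 and JNK2 are stress-activated kinases that phosphorylate Jun, a subunit of the AP-1 transcription factor. NRF2, encoded by Nfe2l2, is held in the cytoplasm and marked for degradation by KEAP1 until oxidants or electrophiles modify KEAP1. NRF2 then binds antioxidant response elements with small MAF proteins and switches on genes for glutathione synthesis, glutathione transferases, quinone reduction and the thioredoxin system. The liver holds much glutathione and expresses many glutathione transferases, which couple glutathione to drugs, toxins and lipid peroxidation products.

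Correlations between the arrays of a group, across probe sets, were 0.9865 to 0.9928. Mapk9 lay between 2.29 and 3.02 on the log2 scale in the JNKΔhepa arrays of both tissues, against 7.74 to 8.69 in the WT arrays (limma adjusted p = 1.05e-09 in hepatocytes and 4.02e-10 in liver). Mapk8 was lower by 0.61 on the log2 scale in JNKΔhepa hepatocytes (adjusted p = 0.00183) and by 0.40 in JNKΔhepa liver (adjusted p = 0.0270, lost under 7 alternatives, up to 0.164), and the labels do not say which exons are removed. Genes of other liver cells were also read on the hepatocyte arrays: Clec4f, a Kupffer cell gene, read 6.48, 6.05 and 5.86 in JNKΔhepa hepatocytes and 7.23, 6.48 and 6.92 in WT hepatocytes, above the array medians of 3.22 to 3.28. P-values rest on the spread between arrays within groups, pooled over the 4 groups and moderated across genes. The main fit treats the liver and hepatocyte arrays of a mouse as independent.

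The NRF2 and glutathione genes differed little between the genotypes. In hepatocytes 1 of the 34 genes passed an adjusted p under 0.05, Gstm2, which fell in JNKΔhepa, where 0.84% of all genes passed (0.473% as lower). In liver none passed in limma, where 0.925% of all genes did. The smallest adjusted p in liver was 0.138, and 3 genes had an unadjusted p under 0.05 (Gstm4, Gclc and Srxn1, all higher in JNKΔhepa), a share of 8.82%, against 12.5% of all genes in either direction and 8.14% as higher. The corresponding hepatocyte count was 5 of 34, or 14.7% against 12.6% of all genes: Gss and Gpx4 higher, and Gstm2, Nfe2l2 and Mgst3 lower. In hepatocytes 25 of the 34 differences were within 0.2 log2 units of 0, and in liver 26 were. The 95% interval of the difference lay within 1 log2 unit of 0 for all 34 genes in both tissues, with a median distance of 0.223 from the estimate to either end.

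The median difference of the 34 genes, JNKΔhepa minus WT, was 0.03 in hepatocytes, against 0.00 over all genes and 0.02 over the 9410 genes above the median level, which include 31 of the 34. In liver the median was 0.08, against 0.02 over all genes and 0.06 over the brighter ones. Differences were above 0 for 22 of 34 genes in hepatocytes (49.4% of all genes) and 24 of 34 in liver (54.4% of all genes). In liver the genotypes did not overlap for 8 of the 34 genes, all with JNKΔhepa above WT (23.5%, against 12.9% of all genes): Keap1, Gclm, Gss, Gsr, Gstm4, Gstk1, Srxn1 and Cat. In hepatocytes they did not overlap for 5 (14.7% of the 34 and of all genes), with Gclm and Gpx2 above WT and Gstm2, Nfe2l2 and Mgst3 below it.

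**Figure D1:**
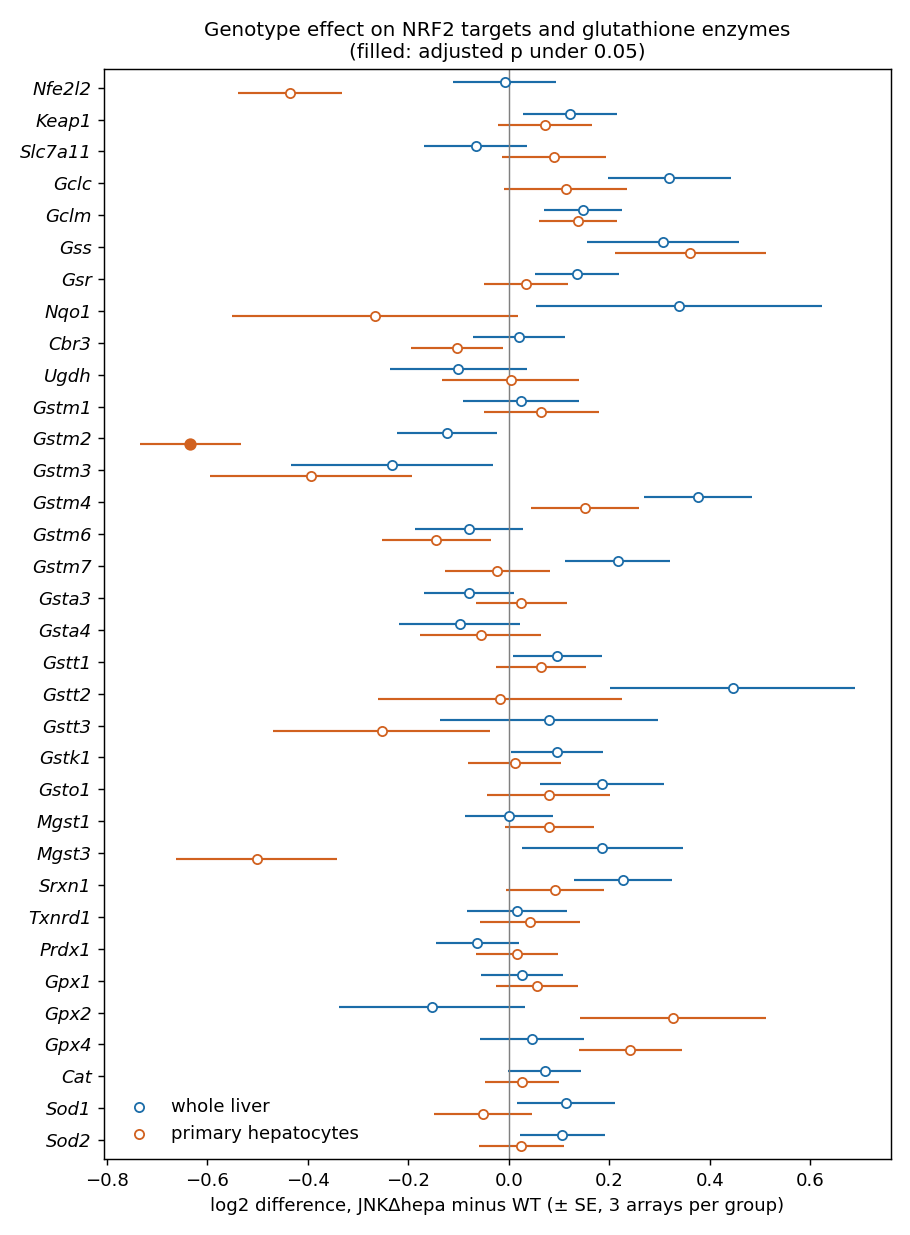
The horizontal axis is the log2 difference, JNKΔhepa minus WT, for the 34 genes, as points with standard errors (3 arrays per group), in whole liver (blue) and primary hepatocytes (orange). Gstm2 in hepatocytes, at −0.63, is the filled point, the one difference with an adjusted p under 0.05.

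NRF2 itself was the member with the second smallest p. Nfe2l2 read 8.11, 8.37 and 8.33 in JNKΔhepa hepatocytes and 8.65, 8.87 and 8.60 in WT hepatocytes. No JNKΔhepa array reached the lowest WT array, yet the difference of −0.44 (SE 0.103, n = 3 each, 95% interval −0.66 to −0.21) missed the threshold in limma (adjusted p = 0.0755). It passed under 2 of 16 alternatives, a filter on dim genes (adjusted p = 0.0454) and a trended robust variance (adjusted p = 0.0384). Under the others it missed, with a limma adjusted p of up to 0.214. The difference ranged from −0.49 to −0.36 over the alternatives. In liver Nfe2l2 read 9.19, 9.16 and 9.04 in JNKΔhepa and 9.27, 9.03 and 9.12 in WT, a difference of −0.01 with overlapping arrays. The difference between the tissues in this effect was −0.43 (adjusted p = 0.579), so it was not shown to be particular to hepatocytes. Keap1, the inhibitor, read 5.97, 5.74 and 6.11 in JNKΔhepa hepatocytes and 5.88, 5.93 and 5.80 in WT hepatocytes, which overlap. In liver it read 6.59, 6.60 and 6.63 in JNKΔhepa and 6.50, 6.45 and 6.51 in WT. These do not overlap, but the difference was 0.12 (adjusted p = 0.672).

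The 250 bases before the start of Nfe2l2 and of Gstm2, the members with the smallest p, are shown with those of Srxn1 and Prdx1, the members with the AP-1 sequence TGACTCA. The sequences are from RefSeq (GRCm38.p6) and run 5′ to 3′ along the gene. The stretch of Gstm2 lies at chr3:107986421-107986670 on the minus strand, Nfe2l2 at chr2:75704664-75704913 on the minus strand, Srxn1 at chr2:152105274-152105523 on the plus strand and Prdx1 at chr4:116685349-116685598 on the plus strand. Capitals mark matches on either strand to TGACNNNGC, the core of the antioxidant response element, or to TGACTCA, whose reverse complement is TGAGTCA. Where TCA stands in place of NNN, the first motif holds the second.
Gstm2: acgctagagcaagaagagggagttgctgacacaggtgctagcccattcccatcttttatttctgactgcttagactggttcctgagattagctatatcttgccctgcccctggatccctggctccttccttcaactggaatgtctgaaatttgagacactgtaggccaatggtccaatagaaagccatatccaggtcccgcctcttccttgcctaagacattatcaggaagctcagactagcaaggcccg
Nfe2l2: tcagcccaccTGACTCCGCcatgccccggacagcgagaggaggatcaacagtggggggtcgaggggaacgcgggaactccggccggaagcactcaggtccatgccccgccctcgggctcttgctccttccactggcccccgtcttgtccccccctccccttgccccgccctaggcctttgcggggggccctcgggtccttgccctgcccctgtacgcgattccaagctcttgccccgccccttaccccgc
Srxn1: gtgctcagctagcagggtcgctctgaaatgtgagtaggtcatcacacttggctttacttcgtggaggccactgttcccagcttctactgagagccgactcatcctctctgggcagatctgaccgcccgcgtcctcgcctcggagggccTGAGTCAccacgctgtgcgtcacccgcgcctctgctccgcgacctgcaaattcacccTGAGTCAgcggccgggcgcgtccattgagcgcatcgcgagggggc
Prdx1: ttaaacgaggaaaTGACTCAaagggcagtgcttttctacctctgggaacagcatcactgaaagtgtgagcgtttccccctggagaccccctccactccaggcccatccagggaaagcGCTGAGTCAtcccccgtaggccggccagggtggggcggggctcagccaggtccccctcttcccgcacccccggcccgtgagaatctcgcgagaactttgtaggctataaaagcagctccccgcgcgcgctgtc

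Gstm2 held neither motif in this stretch. The match to TGACNNNGC in Nfe2l2 begins 240 bases before the start. Srxn1 has TGACTCA matches beginning 102 and 45 bases before the start, and a match to the antioxidant core 28 bases after it, outside the stretch shown. The match at 45 bases is followed by GC in the stretch shown. The search took only cores with TGAC, so this TGAGTCAGC was not counted as an antioxidant core. Prdx1 has TGACTCA matches beginning 237 and 131 bases before the start, the second inside the antioxidant core match. Windows from 250 bases before to 50 after the start were held for 32 of the 36 genes (45 windows, since a gene can have several starts). TGACNNNGC occurred in 22.2% of these windows, against 12.4% of all 32851 windows. The 10 genes holding it were Gclm, Gsta3, Gstm7, Mgst1, Nfe2l2, Prdx1, Sod1, Srxn1, Txnrd1 and Ugdh. TGACTCA occurred in 4.44% of the members' windows and in 5.2% of all windows. A letter match is a description and not a measured binding site.

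In glutathione synthesis and recycling, 5 of 5 measured genes were above 0 in hepatocytes (49.4% of all genes) and 4 of 5 in liver (54.4%). They include Slc7a11, which read below the array median throughout. None of the 5 passed the limma test in either tissue. Gclc, the catalytic subunit of glutamate-cysteine ligase, which catalyses the rate-limiting step, read 11.15, 10.88 and 11.30 in JNKΔhepa liver and 10.76, 10.99 and 10.62 in WT liver. One JNKΔhepa array lay below the highest WT array, and the difference was 0.32 (SE 0.123, adjusted p = 0.290). In hepatocytes Gclc read 10.91, 11.14 and 11.16 in JNKΔhepa and 10.94, 11.02 and 10.91 in WT (difference 0.11). Gclm, the modifier subunit of the same ligase, read 10.61, 10.63 and 10.74 in JNKΔhepa liver and 10.54, 10.52 and 10.48 in WT liver. In hepatocytes it read 10.16, 10.23 and 10.27 in JNKΔhepa and 10.15, 10.002 and 10.10 in WT. The genotypes did not overlap in either tissue, by differences of 0.14 in hepatocytes (adjusted p = 0.524) and 0.15 in liver (adjusted p = 0.473).

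Gss, glutathione synthetase, read 7.24, 7.41 and 7.62 in JNKΔhepa hepatocytes and 7.37, 6.71 and 7.11 in WT hepatocytes. In liver it read 7.88, 7.92 and 8.01 in JNKΔhepa and 7.51, 7.56 and 7.81 in WT. The arrays overlapped in hepatocytes (difference 0.36, adjusted p = 0.341) and not in liver (difference 0.31, adjusted p = 0.433). Without WT hepatocyte replicate 2 the hepatocyte difference was 0.19. Gsr, glutathione reductase, which returns oxidised glutathione to its reduced form, differed by 0.03 in hepatocytes and 0.14 in liver (adjusted p = 0.566 in liver). Slc7a11, the cystine importer and a standard NRF2 target, read below the median of all probe sets on all 12 arrays (1.52 to 2.32), so the sizes of its differences are not exact, and neither passed the test.

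Among the quinone, carbonyl and glucuronate enzymes, Nqo1, the quinone reductase often used as an NRF2 readout, varied most. It read 3.52, 4.55 and 4.63 in JNKΔhepa hepatocytes and 4.54, 4.39 and 4.57 in WT hepatocytes. In liver it read 4.91, 5.95 and 5.66 in JNKΔhepa and 4.99, 5.09 and 5.42 in WT. In hepatocytes JNKΔhepa replicate 1 stood apart at the low end, and in liver JNKΔhepa replicate 1 was again the lowest array. The differences, −0.27 in hepatocytes (SE 0.284, adjusted p = 0.780) and 0.34 in liver (SE 0.284, adjusted p = 0.709), were not larger than the spread between mice. Without JNKΔhepa replicate 1 the hepatocyte difference turned to 0.09 (adjusted p = 0.924), so its direction rests on that array. In liver the difference was 0.64 without JNKΔhepa replicate 1 and 0.12 without JNKΔhepa replicate 2. Ugdh, which makes UDP-glucuronate for glucuronidation, differed by 0.00 in hepatocytes and −0.10 in liver. The carbonyl reductase Cbr3 was below the array median on all 12 arrays and differed by −0.10 in hepatocytes and 0.02 in liver, sizes that are not exact.

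Of the 15 glutathione transferases measured with 1 symbol, 1 fell in hepatocytes, where 0.473% of all genes passed as lower. None passed the limma test in liver, where 0.925% of all genes did. Differences were above 0 for 7 and below 0 for 8 in hepatocytes, where 49.4% of all genes were above 0. In liver they were above 0 for 10 and below 0 for 5, where 54.4% of all genes were above 0. The transferase that fell, Gstm2, is a cytosolic enzyme of the mu class. It read 6.71, 6.98 and 6.71 in JNKΔhepa hepatocytes and 7.39, 7.56 and 7.35 in WT hepatocytes. All 3 JNKΔhepa arrays were below all 3 WT arrays, a 1.55-fold decrease (log2 difference −0.63, SE 0.1001, 95% interval −0.85 to −0.42, limma adjusted p = 0.0100). In liver Gstm2 read 7.98, 7.84 and 7.84 in JNKΔhepa and 7.95, 7.95 and 8.13 in WT, which overlap (difference −0.12, adjusted p = 0.697). The effect in hepatocytes minus that in liver was −0.51 (SE 0.142, unadjusted p = 0.00323, adjusted p = 0.417), so a difference between the tissues was not established. The call was lost without JNKΔhepa hepatocyte replicate 3 (difference −0.59, adjusted p = 0.0606) and in a fit to the 6 hepatocyte arrays alone (adjusted p = 0.0666).

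Markers of Kupffer cells with macrophages, sinusoidal endothelium and stellate cells were lower in the same JNKΔhepa hepatocyte arrays. Of 30 markers of Kupffer cells with macrophages, sinusoidal endothelium and stellate cells, 29 were below 0 in hepatocytes, with a median of −0.53, while 12 were above and 18 below 0 in liver (median −0.05). One of the 30, the complement gene C1qb, passed the test in hepatocytes (−1.08, adjusted p = 0.0225). The summed linear signal of the 11 Kupffer cell and macrophage markers was 451 to 702 in JNKΔhepa hepatocytes and 727 to 1213 in WT hepatocytes, against 3175 to 3667 in JNKΔhepa liver and 3088 to 4442 in WT liver. That of the 9 endothelial markers was 899 to 1276 in JNKΔhepa hepatocytes and 1207 to 1568 in WT hepatocytes, and that of the 10 stellate markers 323 to 460 in JNKΔhepa hepatocytes and 476 to 621 in WT hepatocytes. Some of the 30 were dim there: Des read below the array median on 6 hepatocyte arrays, Marco on 5, and Pdgfrb, Col1a1 and Col3a1 on 3 each. For other cell types the hepatocyte medians were 0.06 for cholangiocyte, 0.08 for erythroid, −0.01 for lymphocyte and −0.01 for neutrophil and monocyte markers. Most of these markers read below the array median there, so they say little about whether these cell types shared the fall. The 7 hepatocyte markers measured were all above 0 in hepatocytes, with a median of 0.03. Among 10 pericentral hepatocyte genes the median was −0.09, with Lgr5 at −0.88 (adjusted p = 0.0872) and Glul at 0.01. The part of these markers in the lower Gstm2, Nfe2l2 and Mgst3 was not tested, and in bulk RNA fewer cells of a type cannot be told apart from less RNA per cell.

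**Figure D2:**
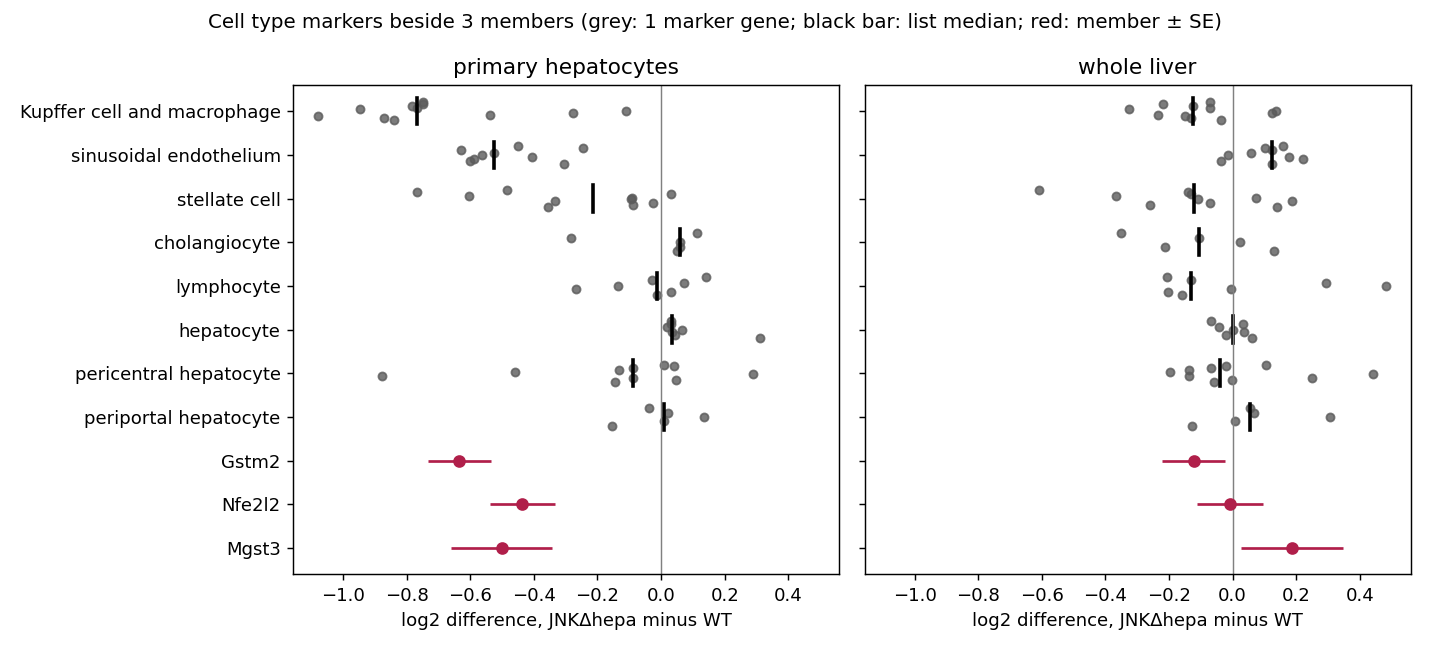
The horizontal axis is the log2 difference, JNKΔhepa minus WT, in hepatocytes (left) and liver (right). Each grey point is a marker gene, each black bar a list's median, and the red points are Gstm2, Nfe2l2 and Mgst3 with standard errors. In hepatocytes Gstm2 (−0.63), Mgst3 (−0.50) and Nfe2l2 (−0.44) are shown beside medians of −0.77 for the Kupffer cell, −0.53 for the endothelial and −0.21 for the stellate markers.

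No other mu-class transferase passed the limma test in either tissue. The mu genes lie side by side on chromosome 3, in the order Gstm7, Gstm6, Gstm3, Gstm2, Gstm1 and Gstm4 with the pseudogenes Gm12497 and Gm12502 among them, and their sequences are alike, so probes can read more than 1 of them and their values are uncertain. In hepatocytes 2 of the 6 mu genes were above 0 and 4 below it, and in liver 3 were on each side. Gstm3 read 9.63, 10.64 and 10.42 in JNKΔhepa hepatocytes and 10.68, 10.61 and 10.58 in WT hepatocytes, a difference of −0.39 (SE 0.201, adjusted p = 0.468) with JNKΔhepa replicate 1 far below the rest. It was −0.09 without that array and −0.60 without JNKΔhepa replicate 2. A second Gstm3 probe set gave −0.69 in hepatocytes and −0.36 in liver, with adjusted p of 0.411 and 0.763 in the limma fit over all probe sets. In hepatocytes this set read 8.62, 9.79 and 9.70 in JNKΔhepa and 10.21, 10.04 and 9.94 in WT, which do not overlap. Of the 40 measured genes nearest to Gstm2 (20 on each side), none passed in limma in hepatocytes (0.84% of all genes did), with a median of −0.02. In liver 1 passed as higher, Elapor1 (0.925% of all genes passed), with a median of 0.04.

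Gstm4 had the smallest p of the 34 genes in liver. It read 9.84, 9.78 and 9.94 in JNKΔhepa liver and 9.46, 9.37 and 9.60 in WT liver. The groups did not overlap, and the difference was 0.38 (SE 0.108, 95% interval 0.14 to 0.61), which missed the threshold (adjusted p = 0.138). In hepatocytes Gstm4 read 9.39, 9.69 and 9.77 in JNKΔhepa and 9.58, 9.40 and 9.42 in WT, a difference of 0.15 with JNKΔhepa replicate 1 the lowest of the 6 arrays. Gstm7 read 10.09, 10.04 and 9.76 in JNKΔhepa liver and 9.86, 9.78 and 9.60 in WT liver (difference 0.22, adjusted p = 0.423, and 0.14 without WT replicate 3). In hepatocytes Gstm7 read 9.60, 9.43 and 9.41 in JNKΔhepa and 9.56, 9.48 and 9.46 in WT, a difference of −0.02. Gstm1 differed by 0.06 in hepatocytes and 0.02 in liver, and Gstm6 by −0.14 and −0.08.

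**Figure D3:**
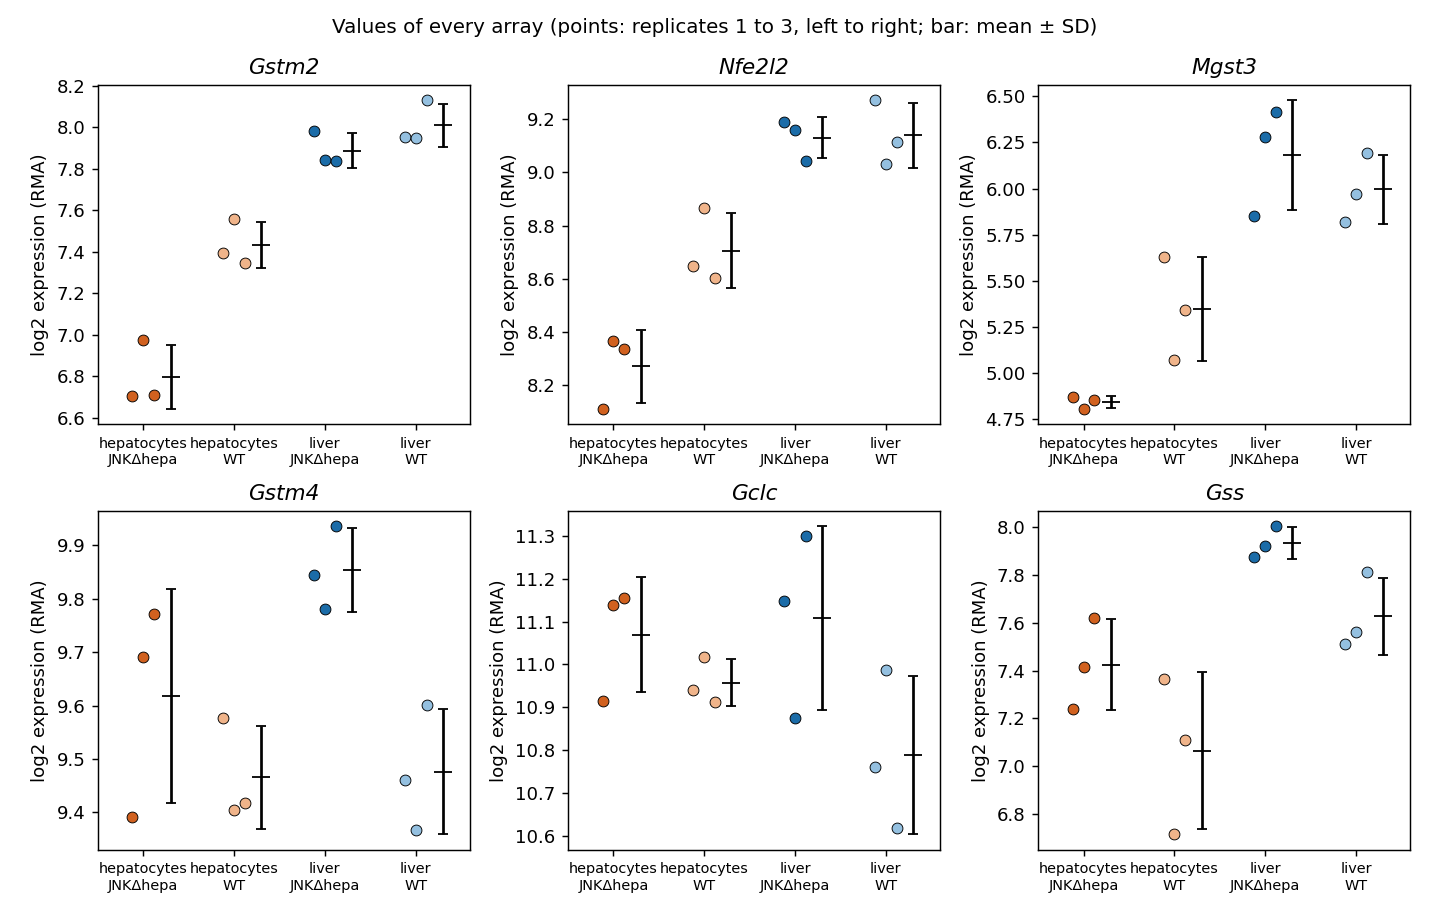
The vertical axes are deposited log2 values, with a separate range for each gene. Points are the 3 arrays of JNKΔhepa hepatocytes, WT hepatocytes, JNKΔhepa liver and WT liver, from left to right, and bars are mean ± SD. For Gstm2, Nfe2l2 and Mgst3 all JNKΔhepa hepatocyte points lie below the WT hepatocyte points, and for Gstm4 and Gss all JNKΔhepa liver points lie above the WT liver points.

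Mgst3, a microsomal transferase with peroxidase activity, read 4.87, 4.81 and 4.86 in JNKΔhepa hepatocytes and 5.63, 5.07 and 5.34 in WT hepatocytes. The JNKΔhepa arrays were close together and below all WT arrays, which spread widely. The difference of −0.50 (SE 0.160, from the spread within all 4 groups) missed the threshold (adjusted p = 0.190). In liver Mgst3 read 5.85, 6.28 and 6.42 in JNKΔhepa and 5.82, 5.97 and 6.19 in WT, a difference of 0.19 in the other direction. The effect in hepatocytes minus that in liver was −0.69 (adjusted p = 0.558). The other microsomal member, Mgst1, differed by 0.08 in hepatocytes and 0.00 in liver.

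In the theta class, Gstt2 had the largest difference of the 34 genes in liver. It read 7.60, 7.75 and 7.62 in JNKΔhepa liver and 6.86, 6.80 and 7.97 in WT liver. WT replicate 3 lay above all JNKΔhepa arrays, so the groups overlap and the difference of 0.45 (SE 0.243) missed the threshold (adjusted p = 0.497). Without that array the difference was 0.82 (adjusted p = 0.0164), while it was 0.27 without WT replicate 1 and 0.24 without WT replicate 2. In hepatocytes Gstt2 read 6.54, 6.48 and 6.59 in JNKΔhepa and 6.87, 6.29 and 6.50 in WT, a difference of −0.02. Gstt3 read 7.51, 7.42 and 7.26 in JNKΔhepa hepatocytes and 7.90, 7.75 and 7.30 in WT hepatocytes. In liver Gstt3 read 8.26, 9.01 and 7.97 in JNKΔhepa and 8.35, 8.25 and 8.40 in WT, where JNKΔhepa held both the highest and the lowest array. Gstt1, the remaining theta member, differed by 0.06 in hepatocytes and 0.10 in liver.

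The alpha, kappa and omega transferases stayed within 0.19 log2 units of 0 in both tissues. Gsta3 differed by 0.03 in hepatocytes and −0.08 in liver, and Gsta4, which acts on the lipid peroxidation product hydroxynonenal, by −0.06 and −0.10. Gstk1, of mitochondria and peroxisomes, differed by 0.01 in hepatocytes and 0.10 in liver, and Gsto1 by 0.08 and 0.19. The 4 probe sets that Gsta2 shares with Gsta1 and predicted genes differed by 0.01 to 0.03 in hepatocytes and −0.03 to −0.02 in liver. The set shared by Gstz1, the zeta-class enzyme of tyrosine breakdown, and Pomt2 differed by 0.05 in hepatocytes and 0.00 in liver.

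In the thioredoxin system, none of the 3 members passed the limma test in either tissue. Srxn1, sulfiredoxin, which repairs overoxidised peroxiredoxins and holds both motifs in its promoter window, read 7.48, 7.54 and 7.51 in JNKΔhepa liver and 7.37, 7.33 and 7.15 in WT liver. The groups did not overlap, with a difference of 0.23 (SE 0.0976, adjusted p = 0.357). In hepatocytes Srxn1 read 6.57, 6.78 and 6.86 in JNKΔhepa and 6.65, 6.75 and 6.53 in WT, which overlap (difference 0.09). Txnrd1, thioredoxin reductase, differed by 0.04 in hepatocytes and 0.02 in liver. Prdx1, a peroxiredoxin that reduces hydrogen peroxide, differed by 0.02 in hepatocytes and −0.06 in liver, where its second probe set gave 0.13.

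Of the 6 peroxidases, catalase and dismutases, 5 were above 0 in each tissue (49.4% of all genes in hepatocytes and 54.4% in liver). None passed the limma test. Gpx4, which reduces lipid hydroperoxides in membranes, read 8.52, 8.59 and 8.65 in JNKΔhepa hepatocytes and 8.38, 8.55 and 8.10 in WT hepatocytes. The arrays overlapped, WT replicate 3 being the lowest, and the difference was 0.24 (SE 0.103, adjusted p = 0.356), with 0.22 from its second probe set. Without WT replicate 3 it was 0.12. In liver Gpx4 read 9.07, 9.16 and 9.19 in JNKΔhepa and 9.09, 9.09 and 9.10 in WT (difference 0.05). Gpx1, the main cytosolic glutathione peroxidase, differed by 0.06 in hepatocytes and 0.03 in liver, and Cat, catalase, by 0.03 and 0.07. Sod2, the mitochondrial superoxide dismutase, differed by 0.02 in hepatocytes and 0.11 in liver. Sod1, the cytosolic form, differed by −0.05 in hepatocytes and 0.11 in liver, and its second probe set had the opposite sign in both (0.08 and −0.05). Gpx2 was below the array median on all 12 arrays, with differences of 0.33 in hepatocytes and −0.15 in liver that are not exact in size.

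Several arrays stood at the ends of the range for many members. JNKΔhepa hepatocyte replicate 1 was the lowest of the 6 hepatocyte arrays for 11 of the 34 genes (32.4%, against 14.9% of all genes), and JNKΔhepa hepatocyte replicate 3 was the highest for 11 (32.4%, against 16.5%). In liver, WT replicate 3 was the lowest for 12 (35.3%, against 19.8%), and JNKΔhepa replicate 3 the highest for 11 (32.4%, against 18.3%). The genotype effect in hepatocytes minus that in liver passed the limma test for none of the 34 genes, and for 0.0106% of all genes. At an unadjusted p under 0.05 there were 3 of them, Gstm2, Nfe2l2 and Mgst3, or 8.82%, against 7.22% of all genes in either direction. All 3 were below 0, and 4.57% of all genes were below 0 with an unadjusted p under 0.05.

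Other genes of the pathway were read beside these. Of 70 further genes listed as NRF2 partners, other transferases, glutathione turnover, thioredoxin and peroxide genes and NRF2 targets, 62 were measured. None passed in limma in hepatocytes (smallest adjusted p 0.104) or in liver (smallest 0.138). At an unadjusted p under 0.05 there were 9 in hepatocytes (14.5%, against 12.6% of all genes) and 16 in liver (25.8%, against 12.5%), of which 10 were higher and 6 lower in JNKΔhepa liver. The medians of the 62 genes were 0.04 in hepatocytes and 0.06 in liver. Of the 18 other NRF2 target genes measured, 13 were above 0 in hepatocytes (median 0.10, with 49.4% of all genes above 0). In liver 14 were above 0 (median 0.20, with 54.4% of all genes above 0). The genotypes did not overlap in liver for 6 with JNKΔhepa above WT (12.9% of all genes) and for 1 below it (7.57%). The 5 of these above 0 in liver at an unadjusted p under 0.05, picked out after their values were seen, did not pass after adjustment (smallest adjusted p 0.277). They were the heme oxygenase gene Hmox1 (0.44), the aldehyde oxidase gene Aox1 (0.41), the malic enzyme gene Me1 (0.32) and the ferritin genes Ftl1 (0.27) and Fth1 (0.18).

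Of these genes, Gstp1, the pi-class transferase, read 11.76, 11.16 and 12.05 in JNKΔhepa liver and 12.35, 12.34 and 12.13 in WT liver. All JNKΔhepa arrays were below all WT arrays (difference −0.62, adjusted p = 0.154), and the difference was −0.37 without JNKΔhepa replicate 2. Osgin1, an oxidative stress response gene with the smallest p of the NRF2 target list in liver, was the 1 of that list to lie wholly below WT there, with 8.63, 8.11 and 8.11 in JNKΔhepa and 8.80, 9.27 and 9.15 in WT (difference −0.79, adjusted p = 0.138). In the other direction, Sqstm1, which encodes the KEAP1-binding autophagy receptor p62, differed by 0.28 in liver (adjusted p = 0.220), and Txnrd2, the mitochondrial thioredoxin reductase, by 0.31 (adjusted p = 0.159). Dpep1, a dipeptidase that splits cysteinylglycine, differed by −0.32 in liver (adjusted p = 0.225) on readings partly below the array median. In hepatocytes, Nqo2, a second quinone reductase, differed by −0.38 (adjusted p = 0.158) and Chac2, which degrades glutathione, by −0.30 (adjusted p = 0.330). Gstcd, a protein with a transferase-like domain, differed by 0.35 in hepatocytes (adjusted p = 0.104), and it passed without JNKΔhepa hepatocyte replicate 1 (adjusted p = 0.0485). Maff, a small MAF partner of NRF2, differed by 0.40 (adjusted p = 0.480), but by 0.15 without JNKΔhepa hepatocyte replicate 2, and Gpx7 by −0.34 (adjusted p = 0.268) on readings below the array median.

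Hepatocytes and liver of the same mice were compared last. The medians of the arrays were 3.22 to 3.28 in hepatocytes and 4.09 to 4.12 in liver, so the tissues seem to have been normalised separately, and a direction is given where 3 scalings have the same sign. As deposited, the median of all genes, hepatocytes minus liver, was −0.60 in JNKΔhepa and −0.58 in WT. Under this shift 25 of the 34 genes passed the threshold as lower in JNKΔhepa hepatocytes (85.9% of all genes) and 28 in WT hepatocytes (85.6%). With the arrays centred on their medians, 20 passed as higher and 1 as lower in JNKΔhepa (60.4% of all genes in either direction), and 19 as higher in WT (56.5%).

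Centring moved every gene up alike, by 0.87 in JNKΔhepa and by 0.83 in WT, so it turned the sign of every deposited fall smaller than that. In JNKΔhepa, 6 of the genes lower as deposited were also below 0 under both other scalings, quantile normalisation over the 12 arrays and centring on the median. They were Mgst3 (−1.34 as deposited, −0.54 by quantiles and −0.46 centred), Gstm2 (−1.09, −0.44 and −0.22), Nqo1 (−1.28, −0.44 and −0.40), Gstt2 (−1.12, −0.45 and −0.25), Gstt3 (−1.02, −0.41 and −0.14) and Cbr3 (−0.96, −0.34 and −0.08). The share of all genes that were below 0 under all 3 scalings was not counted. Centred, 1959 of all 18820 genes passed as lower in JNKΔhepa, against 1 of the 34, Mgst3. Mgst3 passed the limma test under all 3 scalings (adjusted p 8.13e-06, 0.0265 and 0.0245). Gstm2 and Cbr3 passed as deposited and by quantiles (adjusted p 0.00657 and 0.0126 by quantiles) but not when centred; by quantiles 7 of the 34 genes passed in JNKΔhepa (29.9% of all genes) and 2 in WT (28.4%). Cbr3, with 2.33, 2.11 and 2.25 in JNKΔhepa hepatocytes and 3.19, 3.09 and 3.28 in JNKΔhepa liver, was dim throughout. In WT the shift exceeded the fall of all 28 genes lower as deposited, so no direction is given for them. Gclc was above 0 in WT under all 3 scalings (0.17 as deposited, 0.51 by quantiles and 1.003 centred), but did not pass as deposited (adjusted p = 0.209, against 0.0109 by quantiles and 5.58e-05 centred). Whether the genotypes differ in this contrast is the same test as the interaction above, which no member passed in limma.

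**Figure D4:**
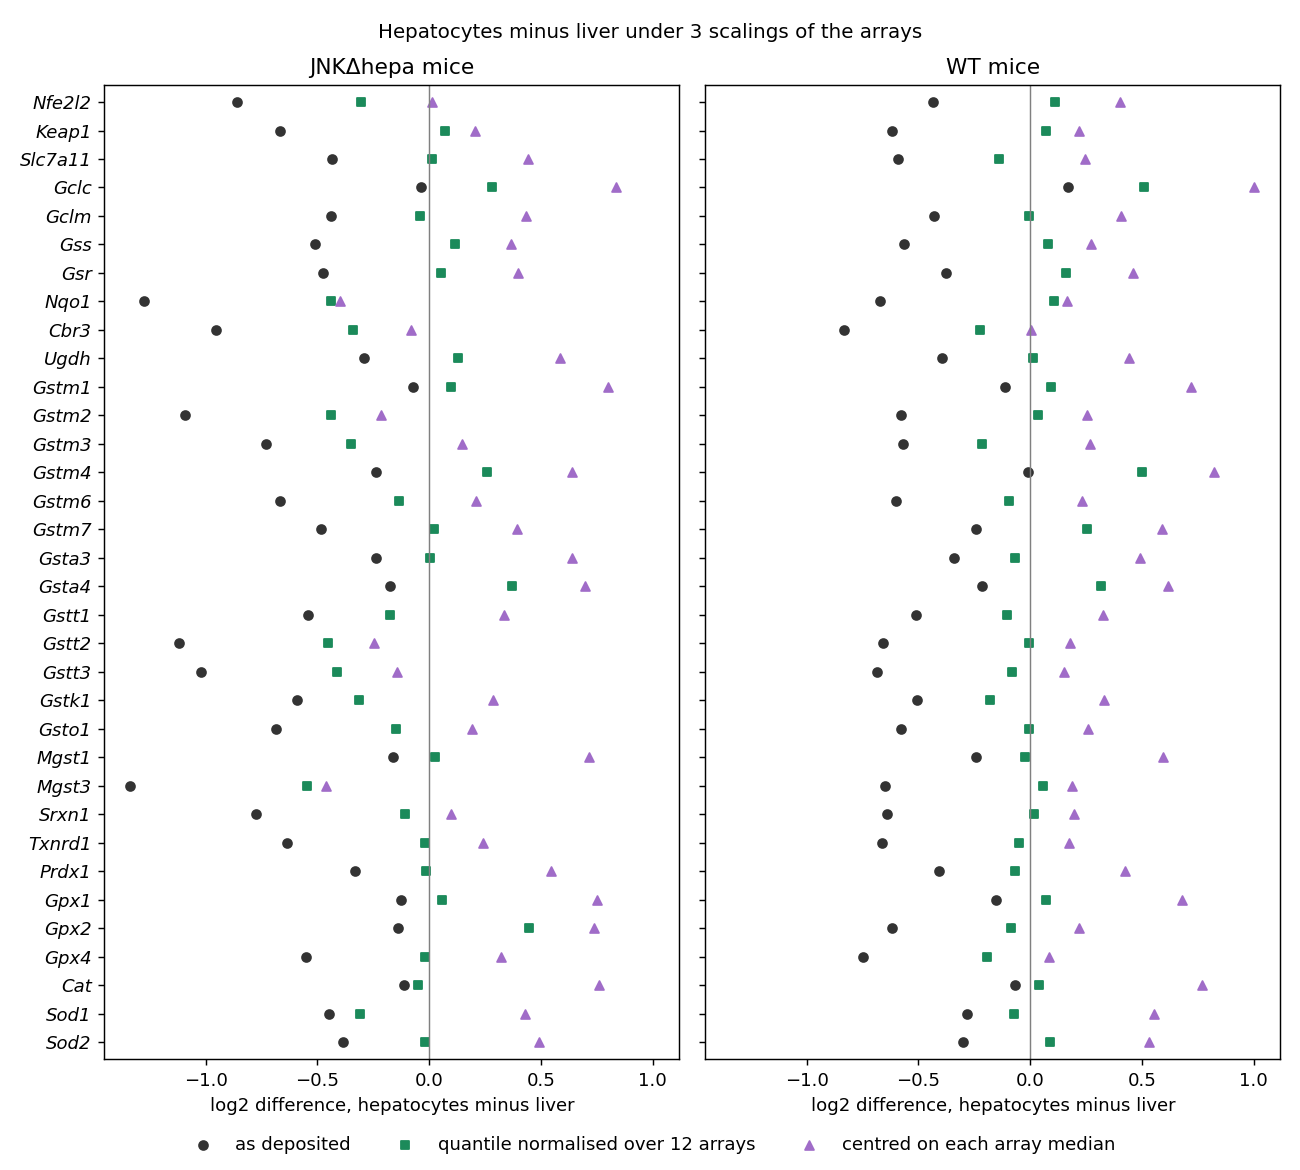
The horizontal axis is the log2 difference, hepatocytes minus liver, in JNKΔhepa mice (left) and WT mice (right), for the 34 genes under 3 scalings: as deposited (circles), quantile normalised over the 12 arrays (squares) and centred on each array's median (triangles). The sign depends on the scaling for most genes. In JNKΔhepa all 3 symbols lie below 0 for Nqo1, Cbr3, Gstm2, Gstt2, Gstt3 and Mgst3.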

How the data were processed

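RNA from liver and hepatocytes of the 6 mice was measured on 1-colour arrays, with 100 ng of RNA per array per the labels' protocols. The deposited values are log2 expression per probe set, made by the authors with RMA, per the submitters' processing notes. The log base was read from the range of the values, while the software, the definition of the probe sets and the normalisation batches were not stated in any source used. The table held 35556 probe sets, 21218 with 1 gene symbol in the platform annotation, and 0 columns without a sample. The brightest probe set with 1 symbol stood for each of 18820 genes, and 1386 genes had several. No detection calls are in the table, so a reading below the median of all probe sets of its array is called dim.

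From these values, limma 3.58.1 under R 4.3.3 (with statmod 1.5.0 for array and block correlations) gave the means of the 4 groups over the 12 arrays, without a block or a filter, with 8 residual and 4.758 prior degrees of freedom. Tests were two-sided, and p-values were adjusted by Benjamini-Hochberg over all genes, with a threshold of 0.05. Tables used pandas 2.3.3 with numpy 2.4.6, and figures used matplotlib 3.10.9, in Python 3.11.15. The members, the further pathway and marker lists and the naming rule were chosen with earlier results of these data known. Array values are given for members past the threshold, the 10 with the smallest p, Nfe2l2, Keap1, Nqo1, Gclc and Gclm, and members whose tissue difference kept its sign under 3 scalings. Gstt2 in liver was also described after its values were seen, as were the promoters shown, since the rule of showing called members with a match gave none. Tissues of 1 mouse share its number in the labels, so the numbers pair the tissues, although deviations from the group means correlated at only −0.0134 to 0.0982. Alternatives were 2 other scalings, other probe set rules, a filter on dim genes, array weights, a trended robust variance, blocks, separate tissues and leaving out each array. Background correction, slide and scan could not be varied, because only summarised values were used. The fit was tested on simulated data over 18820 genes.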

Additional observations from a re-analysis of the deposited data

How the results depend on the processing

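Alternatives were tabulated for 33 chosen gene results: of 540 values, 524 kept their direction and side of the threshold, 11 lost a call, 4 gained one and 1 changed sign, Nqo1 in hepatocytes, which ranged from −0.464 to 0.0880 when leaving out 1 array, above 0 without JNKΔhepa replicate 1. Of the 17 differences of the members of at least 0.2 in size, this was the 1 that changed sign. Of the 34 genes, 0 passed in liver with every alternative except leaving out WT liver replicate 3 (1, Gstt2), so leaving out 1 array gave 0 to 1. In hepatocytes, where 1 passed, 2 passed (Gstm2 and Nfe2l2) with a filter on dim genes or a trended robust variance, 0 in the 6 hepatocyte arrays alone or with replicate number as a block across genotypes (Gstm2 adjusted p 0.0636), and 0 to 1 when leaving out 1 array (0 without JNKΔhepa replicate 3). The adjusted p of Nfe2l2 was 0.0454 with that filter, 0.0384 with that variance and up to 0.214 under the alternatives where it missed. Same-numbered mice of the 2 genotypes share only a number (correlations of −0.12 to 0.11). With mouse as a replicate block, random or fixed as the comparison allows, the counts were 0 in liver, 1 in hepatocytes, 0 in the interaction, 26 for JNKΔhepa tissues and 28 for WT tissues, so the pairing changed no call count beyond 1.5 times. For hepatocytes minus liver, quantile scaling gave 7 calls in JNKΔhepa (1 higher, 6 lower) and 2 in WT (both higher), and centring gave 21 and 19, nearly all higher, against 25 and 28 lower as deposited. Leaving out 1 array gave 24 to 27 in JNKΔhepa and 23 to 26 in WT. The cause of these shifts was not tested beyond the scaling itself.

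Over all genes, 158 passed in hepatocytes, against 245 with the filter, 84 with all probe sets, 77 in 6 arrays, 80 with the number block and 61 to 387 without 1 array. In liver 174 passed, against 408 with array weights, 95 with all probe sets, 29 with the number block and 80 to 208 without 1 array. The interaction gave 2, with 1 to 7 without 1 array, 4 with array weights and 1 with all probe sets or the filter. The liver call for Mapk8 was lost under 7 alternatives (adjusted p 0.0532 to 0.164) and its hepatocyte call with the number block (0.0783). The number of arrays limits the precision: in simulated data at the spread of these arrays, 50% of changes of 0.5 log2 units were found in hepatocytes and 42% in liver, and 96% and 100% of changes of 1 unit.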
